A study of Mus musculus with 8 samples.

Results

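The Clec genes carry the C-type lectin domain family symbol and were taken as every row of the deposited array table whose annotated gene symbol begins with Clec followed by a digit. This rule gave 34 genes of the 24675 that had 1 symbol, each measured by 1 probe set. By the cells in which they are best known, 10 were set down as macrophage and monocyte members, 6 as dendritic cell members, 4 as endothelial and platelet members, 4 as stromal or secreted members, and 9 were the Clec2 genes. The remaining gene, Clec16a, encodes an intracellular protein. The RNA came from whole subcutaneous tumors of B16-F10, a mouse melanoma line, grown in C57BL/6J females. Mice were fed chow (CD) or a high fat and high cholesterol diet (HFHCD, named HFD in the sample titles) for 2 weeks before the cells were injected at 9 weeks of age, and tumors were taken on day 9. The study's methods name no change of diet for these mice after injection. Each diet had 4 tumors, with 1 Affymetrix MouseGene2.0ST array per tumor. Whole tumors mix melanoma cells with every host cell present, so fewer cells of a type and less RNA per cell cannot be told apart.

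C-type lectin receptors are membrane proteins whose extracellular fold resembles a calcium-dependent sugar-binding domain. Many sit on macrophages, monocytes and dendritic cells and bind glycans of microbes, of dying cells or of the host. Activating receptors signal through the kinase Syk, either by a motif in their own tail or through the adaptors FcRγ (Fcer1g) and DAP12 (Tyrobp), whereas inhibitory receptors recruit phosphatases. Other members keep the fold but serve as ligands of natural killer (NK) cell receptors, as endothelial adhesion proteins or as secreted matrix proteins.

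Of the 34 genes, 4 were lower in HFHCD tumors at an unadjusted p under 0.05 by limma, the threshold of the study's methods, and 0 were higher. These were Clec4a3, Clec4a1, Clec7a and Clec10a, all receptors of macrophages, monocytes or dendritic cells. By the methods' t-test, without moderated variances, only Clec4a3 of the 34 passed, where 3.39% of all genes were lower. With array weights Clec4a3 and Clec4a1 were lower, where 6.41% of all genes were. In the main limma fit, 3.91% of all genes tested were lower and 4.76% were higher at the same threshold, 8.68% in all. Genes are called lower or higher below in this sense only, by the unadjusted threshold, and adjusted p-values are given beside them. No Clec gene had an adjusted p under 0.05, and the smallest was 0.437 for Clec4a3. None of the 24675 genes passed after adjustment either (smallest adjusted p = 0.32). Every fold change here is HFHCD minus CD on the log2 scale, and every level is a log2 value of the authors' table.

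The 250 bases before the most upstream listed start are shown for the 3 genes called lower that have an entry in the RefSeq promoter table. Capitals mark GAGGAA, the core bound by the myeloid factor PU.1, or its reverse complement TTCCTC. The window of Clec4a1 is chr6:122921598-122921847 on the plus strand, that of Clec4a3 chr6:122952265-122952514 on the plus strand, and that of Clec7a chr6:129472786-129473035 on the minus strand of GRCm38.p6, each given 5′ to 3′ on the gene's strand.
Clec4a1: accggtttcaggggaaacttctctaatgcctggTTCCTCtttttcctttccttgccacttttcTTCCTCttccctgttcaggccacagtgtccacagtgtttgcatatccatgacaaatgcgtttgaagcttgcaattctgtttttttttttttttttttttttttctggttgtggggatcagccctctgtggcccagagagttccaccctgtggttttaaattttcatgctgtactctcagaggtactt
Clec4a3: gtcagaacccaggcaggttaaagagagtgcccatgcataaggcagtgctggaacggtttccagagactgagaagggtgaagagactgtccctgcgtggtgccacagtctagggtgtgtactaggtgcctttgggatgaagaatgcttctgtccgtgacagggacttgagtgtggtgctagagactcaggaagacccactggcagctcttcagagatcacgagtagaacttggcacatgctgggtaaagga
Clec7a: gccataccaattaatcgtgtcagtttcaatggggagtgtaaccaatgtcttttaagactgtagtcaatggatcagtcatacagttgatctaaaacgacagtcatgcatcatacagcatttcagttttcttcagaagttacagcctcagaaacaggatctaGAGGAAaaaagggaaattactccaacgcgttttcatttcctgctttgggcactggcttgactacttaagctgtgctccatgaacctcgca
The core occurred at 2 places before Clec4a1 and at 1 place before Clec7a, with 0 matches before Clec4a3. On either strand it was present in 13 of the 26 Clec promoters listed, against 23.1% of 27025 promoters of the same length. Macrophage or dendritic members among the 13 were Clec4a1, Clec4b1, Clec4b2, Clec4d, Clec4e, Clec5a, Clec7a and Clec12a. Members of other groups were Clec2l, Clec11a, Clec14a, Clec16a and Clec18a. In the same windows and on both strands, TTNNGNAA (C/EBP) was found in 13 of 26 against 37% of all promoters, TGANTCA (AP-1) in 5 against 6.85%, and the interferon-stimulated response element in 2 against 3.05%. A match is a run of letters and not a measured site. The windows of Clec4a1 and Clec4a3 shared identical bases at 57.2% of their 250 positions in a global alignment, near the median of 58% over the 325 pairs of Clec promoters. The closest pair was Clec2e and Clec2h at 88.4%.

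Levels differed between tumors within a diet before any comparison of diets. Tumors CD 1 and CD 3 were the highest of the 8 in the macrophage, fibroblast and muscle marker lists, but not together in the keratinocyte or endothelial lists. The mean of 16 macrophage and monocyte markers reached 7.37 in CD 1 and 7.75 in CD 3, whereas the other CD tumors had 6.40 to 6.54 and the HFHCD tumors 5.94 to 6.43. Of these markers 9 of 16 were lower on HFHCD and 0 were higher, beside 3.91% of all genes lower. Melanocyte markers were high in all arrays, with list means of 11.20 to 11.46. For the genes described in full, fold changes are therefore also given without both tumors, a comparison added once the values were known. Both were picked for high values, so leaving them out must raise the fold change of any gene highest in them. Such a shift is therefore a description and no test. Leaving them out can also narrow the CD spread of such a gene. Calls and p-values of that fit, kept, lost or new, are therefore a description too, with 7.2% of all genes lower in it and 1810 of the 24675 higher.

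Clec4a3 and Clec4a1 encode receptors of the dendritic cell immunoreceptor family (DCIR3 and DCIR4), which are found on mouse monocytes and macrophages. Clec4a3 measured 6.39, 5.58, 7.58 and 5.36 in CD tumors 1 to 4 and 4.97, 4.78, 4.53 and 4.70 in HFHCD tumors 1 to 4. All HFHCD tumors lay below all CD tumors, and CD 3 was the highest. The means were 6.23 ± 1.00 and 4.74 ± 0.18 (SD, n = 4 each), a fold change of -1.48 (SE 0.41, 95% interval -2.42 to -0.55), or 2.80-fold lower. The limma p was 0.00559 (adjusted p = 0.437), and an exact two-sided permutation test over the 70 splits of the tumors gave p = 0.0286, the smallest it can give. Clec4a3 was the only Clec gene whose groups did not overlap, while 2.27% of all genes were lower and 2.93% higher without overlap. Without CD 1 and CD 3 its fold change was -0.73 (limma adjusted p = 0.214), and Clec4a3 was lower in every setting tried.

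Clec4a1 measured 6.10, 5.38, 7.56 and 4.94 in the CD tumors and 5.10, 4.53, 4.24 and 4.65 in the HFHCD tumors. CD 3 was highest, and the groups overlapped because CD 4 fell below HFHCD 1. The means of 6.00 ± 1.15 and 4.63 ± 0.36 (SD, n = 4 each) differed by -1.37 (SE 0.49, 95% interval -2.46 to -0.27), or 2.58-fold. The limma p was 0.0198 (adjusted p = 0.498), and the exact permutation p was 0.0571. The call was lost without HFHCD 3 (-1.24). The fold change was -0.84 without CD 3 and -0.53 without CD 1 and CD 3 (limma adjusted p = 0.334).

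Clec7a encodes Dectin-1, the receptor for fungal β-glucan that signals through Syk and Card9. It measured 7.45, 5.82, 6.18 and 5.99 in the CD tumors and 5.44, 6.11, 4.35 and 5.26 in the HFHCD tumors. CD 1 was highest and HFHCD 3 lowest, and HFHCD 2 lay above CD 2 and CD 4. The means of 6.36 ± 0.74 and 5.29 ± 0.73 (SD, n = 4 each) differed by -1.07 (SE 0.42, 95% interval -2.02 to -0.12), or 2.10-fold, with a limma p of 0.0310 (adjusted p = 0.535) and an exact permutation p of 0.0857. The call was lost without CD 1 (-0.71), without HFHCD 3 (-0.76), without HFHCD 4 (-1.06) and without CD 1 and CD 3 (-0.62, limma adjusted p = 0.507).

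Clec10a encodes the galactose-type lectin MGL1 of dendritic cells and macrophages and was set down with the dendritic members. It measured 5.61, 5.09, 5.66 and 4.00 in the CD tumors and 4.46, 4.31, 3.50 and 4.40 in the HFHCD tumors. CD 4 was below 3 of the HFHCD tumors, and 5 of the 8 values were under 4.5. The means of 5.09 ± 0.77 and 4.17 ± 0.45 (SD, n = 4 each) differed by -0.92 (SE 0.36, 95% interval -1.74 to -0.11), or 1.90-fold, with a limma p of 0.0309 (adjusted p = 0.535) and an exact permutation p of 0.114. The call was lost when CD 1 (-0.75), CD 2 (-0.92), CD 3 (-0.73) or HFHCD 3 (-0.70) was left out, and the fold change was -0.38 without CD 1 and CD 3.

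**Figure D1:**
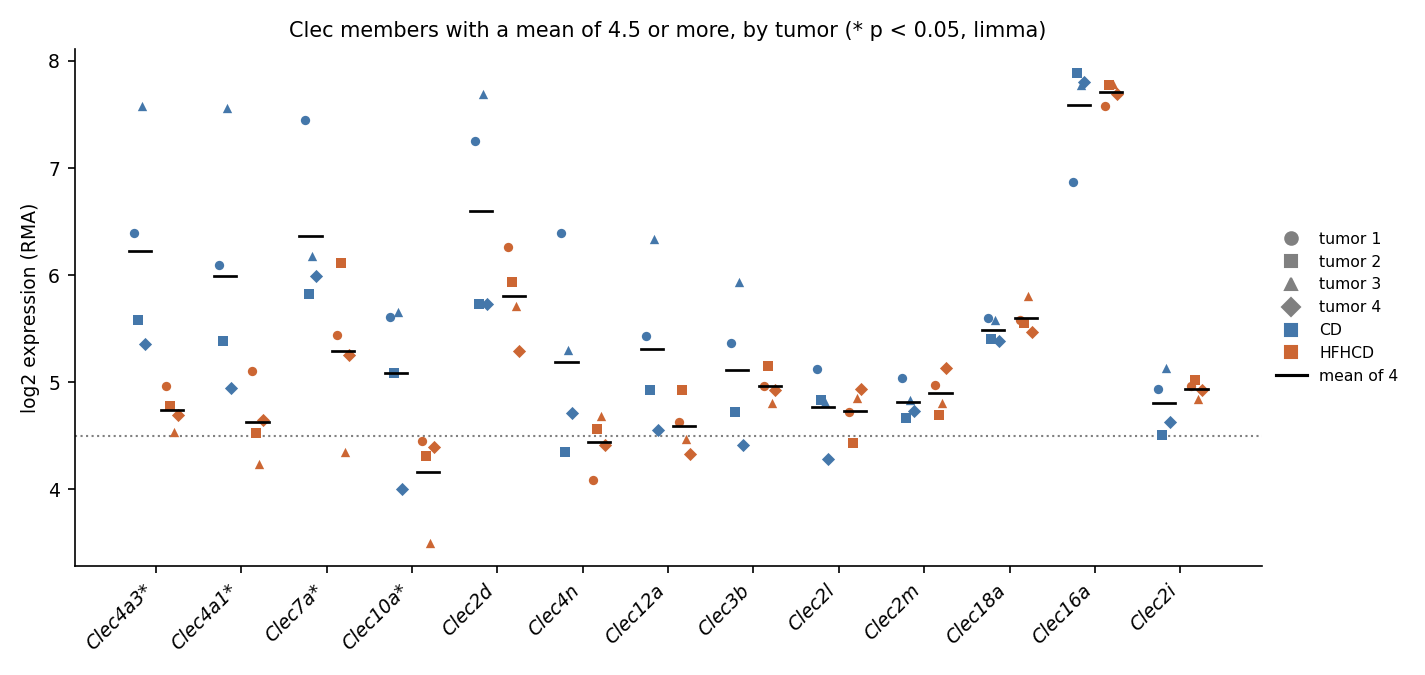
Log2 expression (vertical axis) of the 13 Clec genes with a mean of 4.5 or more in each of the 8 tumors, coloured by diet and shaped by tumor number, with a bar at the mean of each diet, a dotted line at 4.5 and an asterisk at the 4 called genes. The HFHCD values of Clec4a3 run from 4.53 to 4.97, below its lowest CD value of 5.36, whereas the diets overlap in the other 12 genes.

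Of the other macrophage and monocyte members, Clec12a and Clec4n lay closest to the threshold and are described because other settings called Clec12a, a choice made after the values were seen. Clec12a, an inhibitory receptor that recognises uric acid crystals, measured 5.44, 4.93, 6.34 and 4.55 on CD and 4.63, 4.92, 4.47 and 4.33 on HFHCD. Its fold change was -0.72 (95% interval -1.47 to 0.03, limma adjusted p = 0.592), with overlapping diets and CD 3 highest. Clec4n, which encodes Dectin-2, a receptor for fungal mannans, measured 6.39, 4.35, 5.30 and 4.72 on CD and 4.09, 4.57, 4.68 and 4.42 on HFHCD. Its fold change of -0.75 (95% interval -1.60 to 0.10, limma adjusted p = 0.635) came with 1 high value, in CD 1, and overlap. The Clec4n mean was 5.19 on CD and 4.44 on HFHCD, so it passed 4.5 only through its CD values. Without CD 1 and CD 3 the fold changes were -0.15 for Clec12a and -0.09 for Clec4n.

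The 5 remaining macrophage and monocyte members had means over the 8 arrays under 4.5, a level that 40.2% of all values fell below and that marks dim genes here. Clec4d, the partner of the glycolipid receptor Mincle, had a fold change of -0.36 (limma adjusted p = 0.641), with its highest values in CD 1 (4.81) and CD 3 (4.54). Clec4e, which encodes Mincle itself, had a fold change of -0.23 and reached 5.09 in CD 1. Clec5a (-0.18), a receptor coupled to DAP12, the inhibitory receptor Clec12b (0.03) and Clec4f (0.07), a receptor of liver Kupffer cells, had all 8 values below 4.5. In all, 3 of the 10 macrophage and monocyte members were lower and 0 higher, beside 3.91% of all genes lower, and their median fold change was -0.54 against 0.0024 over all genes.

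Among the 6 dendritic cell members only Clec10a was lower, and the other 5 were dim in all 8 arrays. Clec9a encodes DNGR-1, which binds the actin of dead cells on cross-presenting dendritic cells, and its fold change was -0.11 (95% interval -0.44 to 0.22). The inhibitory DCIR gene Clec4a2 (-0.26), its relative Clec4a4 (-0.12), and Clec4b1 (-0.20) and Clec4b2 (0.01), activating relatives, were not called. Conventional dendritic cell markers were called lower for 3 of 16 genes and higher for 0, beside 3.91% of all genes lower. Their list means were 5.63 to 6.08 on CD and 5.44 to 5.57 on HFHCD. Id2 (9.91), Sirpa (9.59) and Cadm1 (9.52) had the highest levels of this list, and 5 of the 16 were dim.

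None of the 4 endothelial and platelet members was called, and all were dim. Clec14a, a vascular adhesion protein that binds Mmrn2, had a fold change of -0.17 (95% interval -0.40 to 0.05, limma adjusted p = 0.681). Clec1a, an endothelial receptor for fungal melanin, stood at -0.01 (95% interval -0.21 to 0.18). Clec1b, the platelet receptor for podoplanin, had a fold change of -0.09 and Clec4g, a lectin of liver sinusoidal endothelium, of -0.12. Endothelial markers had list means of 6.04 to 6.47 over all tumors, and 1 of 15 was lower, beside 3.91% of all genes.

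The stromal and secreted members were not called. Clec3b encodes tetranectin, a plasminogen-binding protein, and measured 5.37, 4.72, 5.94 and 4.42 on CD and 4.97, 5.15, 4.81 and 4.93 on HFHCD. The CD values spread on both sides of the HFHCD values, with a fold change of -0.15 (95% interval -0.79 to 0.50). Without CD 1 and CD 3 the direction turned and Clec3b was higher (0.40, limma adjusted p = 0.256). Fibroblast markers moved with the diets, since 11 of 15 were lower, beside 3.91% of all genes. Their list means were 6.30 to 7.53 on CD and 5.72 to 5.84 on HFHCD. Their part in the Clec values was not tested. Clec18a, a secreted member, had a fold change of 0.11. Clec11a, a bone growth factor also named osteolectin, had -0.06, and the cartilage gene Clec3a had -0.08, and both were dim.

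Clec2 genes encode ligands of NK cell receptors in several cases, and none of the 9 was called. Clec2d, whose product Clr-b binds the inhibitory receptor NKR-P1B, measured 7.25, 5.73, 7.69 and 5.73 on CD and 6.26, 5.94, 5.71 and 5.30 on HFHCD. CD 1 and CD 3 were high and the other CD tumors lay within the HFHCD values. The means of 6.60 ± 1.02 and 5.80 ± 0.41 (SD, n = 4 each) differed by -0.80 (95% interval -1.80 to 0.20, limma p = 0.105, adjusted p = 0.676, exact permutation p = 0.257). Leaving out CD 2 or CD 4 brought Clec2d past the threshold (-1.09 in each case), and without CD 1 and CD 3 the direction turned (0.070).

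Clec2i encodes Clr-g, a ligand of the receptor NKR-P1F. Its fold change was 0.14 (95% interval -0.18 to 0.45), and it was higher without CD 1 and CD 3 (0.37, limma adjusted p = 0.221). Its receptor gene Klrb1f, which was dim, was lower (-0.46, limma adjusted p = 0.423), with 4.06, 4.10, 4.22 and 3.74 on CD and 3.50, 3.57, 3.51 and 3.70 on HFHCD and no overlap. The other Clec2 genes were Clec2l (-0.03) and Clec2m (0.09) above 4.5, and the dim Clec2e (-0.12), Clec2f (0.01), Clec2g (0.01), Clec2h (0.07) and Clec2j (-0.11), which RefSeq lists as a pseudogene. Clec2 genes and the Clec4a and Clec4b genes are close relatives. Cross-hybridisation between them was not tested.

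Clec16a, a regulator of autophagy and mitophagy, had a mean of 7.65 over the 8 arrays. It measured 6.87, 7.89, 7.77 and 7.81 on CD and 7.58, 7.78, 7.79 and 7.69 on HFHCD. All but CD 1 lay close together, with means of 7.59 ± 0.48 and 7.71 ± 0.10 (SD, n = 4 each). The fold change was 0.12 (95% interval -0.35 to 0.59, limma p = 0.569, adjusted p = 0.929, exact permutation p = 0.943) and turned to -0.12 without CD 1.

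**Figure D2:**
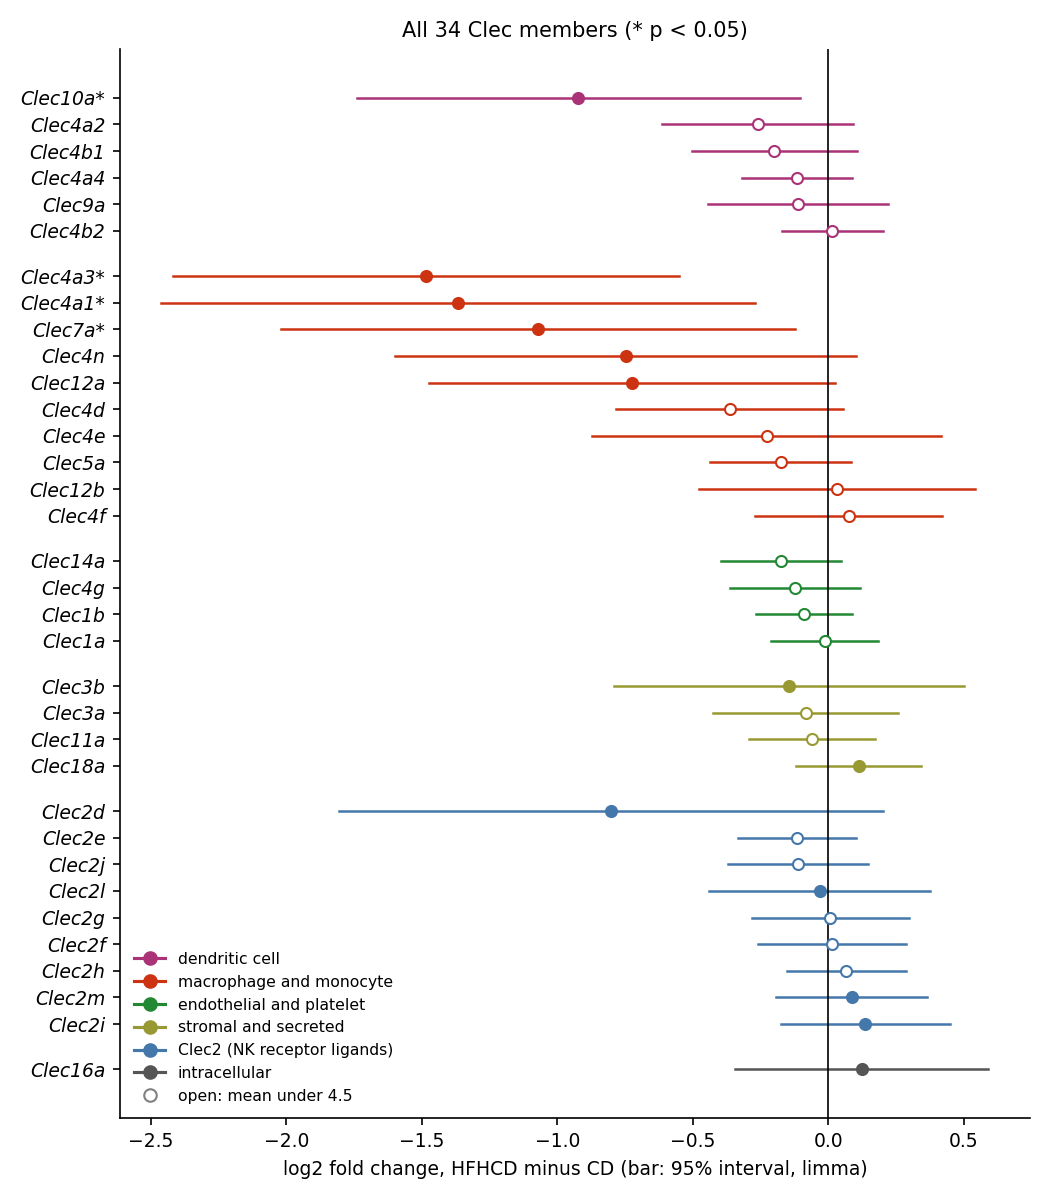
Log2 fold change (HFHCD minus CD, horizontal axis, log2 units) with its 95% interval for each of the 34 Clec genes, ordered within member groups, with open points for genes whose mean is under 4.5. The intervals of Clec4a3, Clec4a1, Clec7a and Clec10a lie below 0 and those of the other 30 include 0.

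Over the whole family, 24 fold changes were negative and 10 positive, with a median of -0.11, whereas 49.3% of all genes had a negative fold change. The fold changes ran from -1.48 to 0.14. Of the 34 genes 21 were dim, of which 0 were called, and 13 had a mean of 4.5 or more. Clec10a and Clec4n passed 4.5 only through their CD values, with HFHCD means of 4.17 and 4.44. Without CD 1 and CD 3 the median of the family was -0.012. The dim gene nearest to this level was Clec2e, with a mean of 4.23, and the nearest gene above it was Clec10a, with 4.63.

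Most of the family lies on chromosome 6, where 26 of the 34 genes were found in RefSeq order. The 9 genes from Clec4a1 to Clec4e held 2 lower genes, the neighbours Clec4a1 and Clec4a3, and 8 negative fold changes, with a median of -0.26. The 14 genes from Clec2j to Clec7a held 1 lower gene, Clec7a, with a median of -0.05. Outside chromosome 6, 1 of 8 genes was lower, Clec10a. The share of all genes that were lower was 3.91%, and 6, 9 and 4 genes of these sets were dim. Clec4a4 stands next to Clec4a3 in this order and was dim, with a fold change of -0.12.

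**Figure D3:**
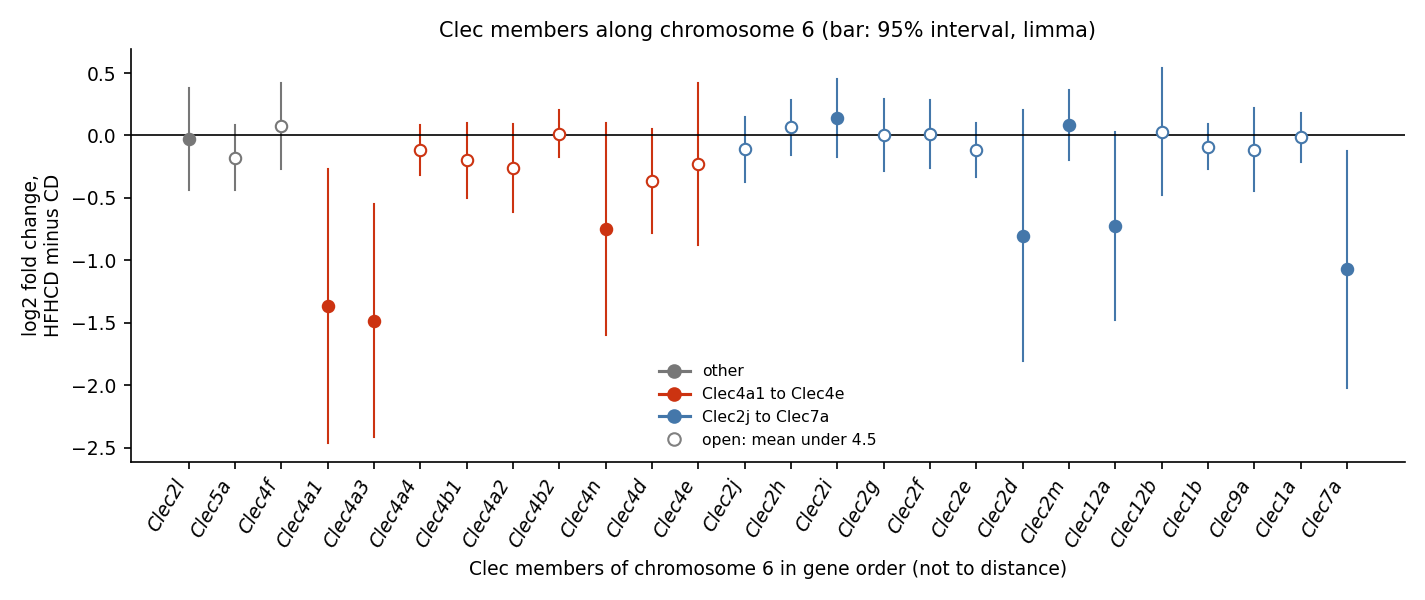
Log2 fold change (HFHCD minus CD, vertical axis, log2 units) of the 26 Clec genes of chromosome 6 in RefSeq gene order (horizontal axis, rank and not distance), with 95% intervals as vertical lines, colours for the clusters and open points for dim genes. Clec4a1 (-1.37) and Clec4a3 (-1.48) stand side by side, and Clec7a (-1.07) closes the second cluster.

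Because 9 of the 16 macrophage and monocyte markers were lower, with list means that overlapped between diets, the called genes were also set against the mean of these markers in the same array. These 4 genes were chosen after their values were seen, so the differences are a description without a test. Clec4a3 minus the marker mean was -0.98, -0.96, -0.17 and -1.04 in the CD tumors and -1.46, -1.65, -1.41 and -1.54 in the HFHCD tumors. The diets did not overlap, and the difference between their means was -0.73. Against the same mean, 2 of the 16 markers were also lower without overlap, Ctss (-0.83) and Ccr2 (-0.58), and 3 were higher without overlap, Apoe, Cd68 and Cx3cr1. This separation was thus not particular to Clec4a3. Each marker is part of the mean subtracted from it, so marker differences must go in both directions. The share of all genes without overlap on this scale was not computed. Clec4a1 differed by -0.61 on this scale with overlap, Clec7a by -0.31 and Clec10a by -0.17, both with overlap. The share of each difference that goes with the number of macrophages was not tested.

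**Figure D4:**
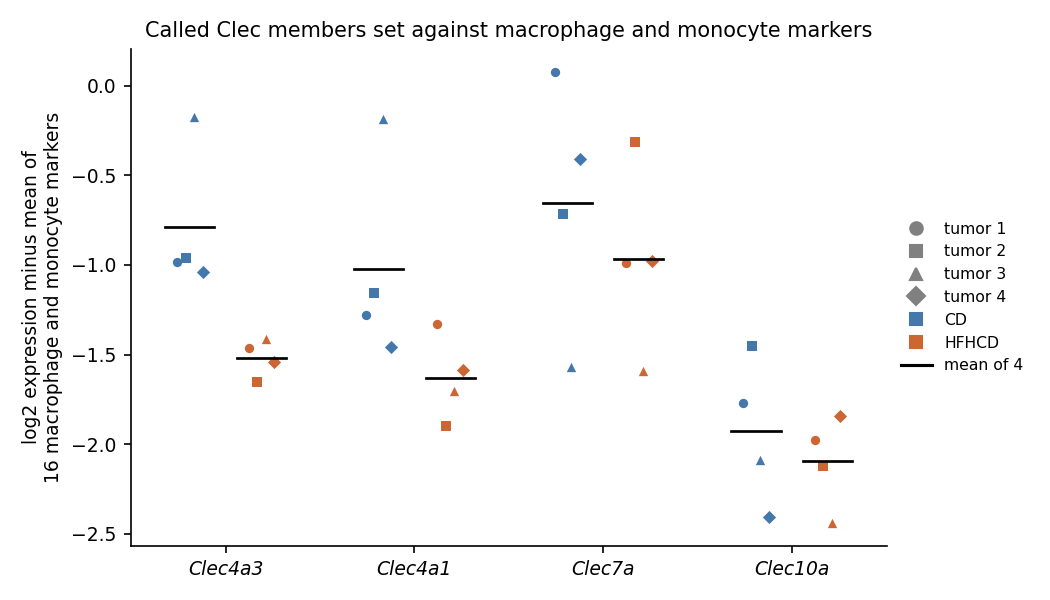
Log2 expression of the 4 called genes minus the mean of 16 macrophage and monocyte markers in the same tumor (vertical axis, log2 units), by diet, with a bar at each mean. Clec4a3 lies between -1.65 and -1.41 in HFHCD tumors and at -1.04 or above in CD tumors, and the other genes overlap.

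Genes through which these receptors signal were lower for 7 of 22 measured and higher for 0, with a median fold change of -0.26, beside 3.91% of all genes lower. Plcg2, a phospholipase downstream of Syk, measured 7.09, 7.30, 7.59 and 7.34 on CD and 6.74, 6.90, 7.16 and 6.87 on HFHCD. Its fold change was -0.41 (limma adjusted p = 0.466), and only HFHCD 3 lay above a CD tumor. Inpp5d, the lipid phosphatase SHIP1, fell by 0.75 without overlap (limma adjusted p = 0.469). The kinases Fgr (-0.39, adjusted p = 0.462) and Btk (-0.47, adjusted p = 0.538, dim) and the transcription factor Nfatc1 (-0.35, adjusted p = 0.537) were also lower by limma. Tyrobp (-0.97, adjusted p = 0.538) and Vav1 (-0.51, adjusted p = 0.565), named beyond the 5 smallest p-values, completed the 7.

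The adaptors of the activating receptors were highest in CD 1 and CD 3. Fcer1g, the FcRγ chain, measured 9.21, 7.84, 9.66 and 7.82 on CD and 8.21, 7.93, 7.34 and 7.91 on HFHCD. Tyrobp measured 7.54, 5.80, 7.29 and 5.87 on CD and 5.97, 5.84, 5.29 and 5.51 on HFHCD. In both, CD 1 and CD 3 were the highest tumors and the diets overlapped. The fold change of Fcer1g was -0.79 (limma adjusted p = 0.647), and whether it differed from that of Tyrobp was not tested. Fgr, Plcg2 and Inpp5d were called whichever single tumor was left out. Fgr lay near the dim level, with 5 of its 8 values under 4.5 and an HFHCD mean of 4.36. Tyrobp lost its call without CD 1, CD 3, HFHCD 3 or HFHCD 4 (-1.25 to -0.67 over the 8 omissions), and Vav1 without CD 4 or any HFHCD tumor (-0.64 to -0.26). Btk lost it without CD 1, CD 3, HFHCD 1, HFHCD 3 or HFHCD 4 (-0.58 to -0.28), and Nfatc1 without CD 2, CD 3, HFHCD 1 or HFHCD 2 (-0.43 to -0.23). Syk (-0.28, limma adjusted p = 0.772) and Card9 (0.03, limma adjusted p = 0.984) were not called. Without CD 1 and CD 3 the fold change of Tyrobp was -0.18, and the calls of Tyrobp, Fgr (-0.24), Btk (-0.17) and Nfatc1 (-0.31) were lost. Plcg2 (-0.40), Inpp5d (-0.39) and Vav1 (-0.34) stayed under the unadjusted threshold in that fit, which is a description and no test.

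C-type lectin genes without the Clec symbol were lower for 6 of 30 measured and higher for 1, with a median fold change of -0.19, beside 3.91% of all genes lower and 4.76% higher. Mrc1, the macrophage mannose receptor, measured 8.20, 7.09, 8.19 and 7.06 on CD and 6.68, 6.95, 6.42 and 6.87 on HFHCD. Its diets did not overlap, and the fold change was -0.91 (limma adjusted p = 0.466). The activating NK receptor gene Klrk1 (-0.50, limma adjusted p = 0.491, dim), the DC-SIGN relatives Cd209a (-0.44, adjusted p = 0.499, dim) and Cd209g (-0.77, adjusted p = 0.504), and the endothelial selectin Sele (-0.30, adjusted p = 0.543) were lower.

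Cd209f, named beyond the 5 smallest p-values, was dim (mean 3.92) and had the greatest fold change of this list at -1.77 (limma adjusted p = 0.543). Its CD values were 6.55, 3.02, 6.17 and 3.50 for tumors 1 to 4, and all HFHCD values lay between 2.79 and 3.21, so the high values were those of CD 1 and CD 3 alone. Without CD 1 and CD 3 its fold change was -0.22 and it was not called. It was called in 2 of the 8 fits that left out 1 tumor, those without CD 2 and without CD 4, with fold changes from -2.37 to -1.19. The gene that was higher, Asgr2, a subunit of the liver asialoglycoprotein receptor, changed by 0.21 (limma adjusted p = 0.558) and was dim, and of the 8 fits that left out 1 tumor it was called in 2, those without CD 1 and without HFHCD 1. Mrc1 and Klrk1 were called whichever single tumor was left out, whereas Cd209a lost the call without HFHCD 3 or HFHCD 4, Cd209g without HFHCD 1 or HFHCD 4, and Sele without CD 1, CD 2, CD 3, HFHCD 1 or HFHCD 4. With CD 1 and CD 3 both left out, the fold change of Mrc1 was -0.35 and its call was lost, as were those of Cd209a (-0.28), Cd209g (-0.29) and Sele (-0.17). Klrk1 (-0.24) and Asgr2 (0.26) stayed under the unadjusted threshold in that fit, again a description and no test.

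**Figure D5:**
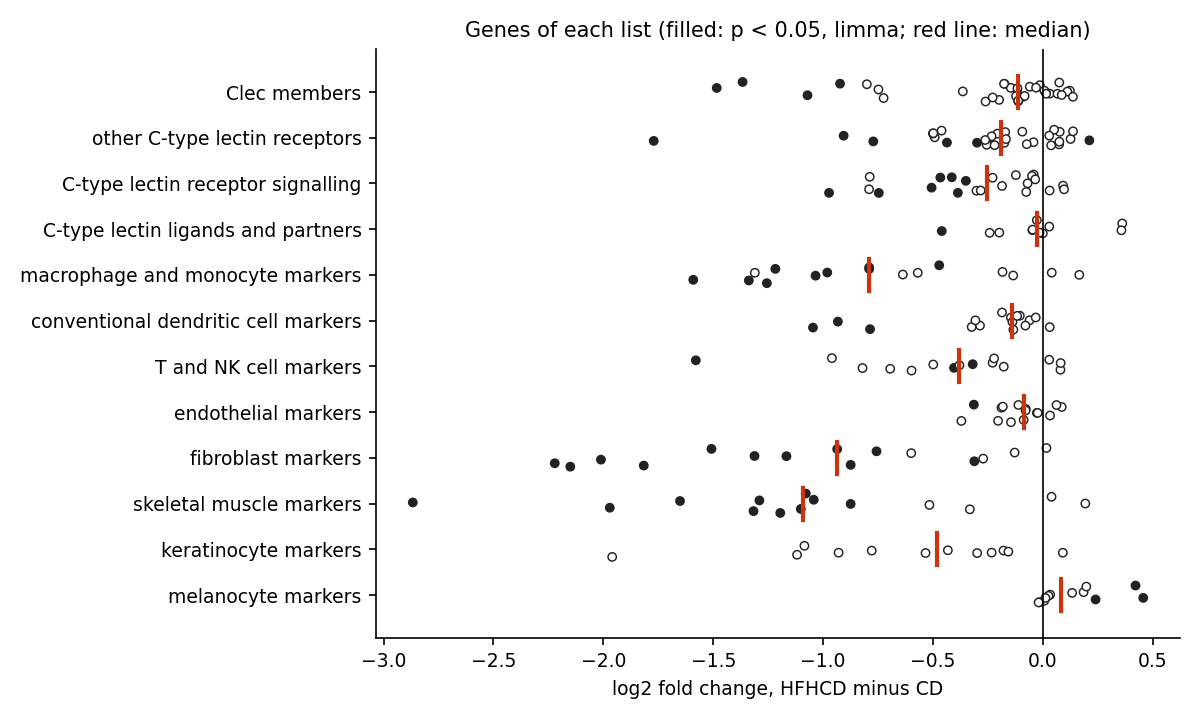
Log2 fold change (HFHCD minus CD, horizontal axis) of every gene of the Clec family, of the 3 related lists and of 8 marker lists, with filled points for limma p under 0.05 and a red line at each median. Medians lie at -0.11 for the Clec genes, -0.19 for the other C-type lectin genes, -0.26 for the signalling genes and -0.79 for the macrophage and monocyte markers.

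Ligands and partners of the Clec proteins were lower for 1 of 11 measured, Klrb1f, and higher for 0, beside 3.91% of all genes lower. Podoplanin (Pdpn), the ligand of Clec1b, measured 8.89, 7.89, 8.11 and 8.25 on CD and 8.29, 8.45, 8.49 and 7.84 on HFHCD. Its fold change was -0.02, and the diets overlapped throughout. Mmrn2, the partner of Clec14a, had a fold change of -0.20 (limma adjusted p = 0.751).

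Markers of other cell types gave further values beside the family, where 3.91% of all genes were lower and 4.76% higher. Neutrophil markers were called for 0 of 12, and 10 of 12 were dim. Liver sinusoid and Kupffer markers were called for 0 of 6, with 4 dim, as were Clec4f and Clec4g. Platelet markers were lower for 0 and higher for 1 of 9. T and NK cell markers were lower for 3 of 15, with a list mean of 5.66 in CD 3 against 4.30 to 4.65 in the other tumors. Skeletal muscle markers were lower for 10 of 14. Keratinocyte markers were called for 0 of 12, with a list mean of 6.58 in CD 3 and 4.47 to 5.43 elsewhere. Lymphatic endothelial (0 of 6), B and plasma cell (0 of 7) and mast cell markers (0 of 8) were not called, and melanocyte markers were higher for 3 of 12. The part of these cells in the Clec values was not tested.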

How the data were processed

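Total RNA of 8 whole tumors, 4 per diet, was measured on Affymetrix MouseGene2.0ST arrays. The authors deposited log2 values made by RMA in Affymetrix Expression Console, per the submitters' processing notes, which give no tool versions. RMA subtracts background, equalises the distribution of probe values between arrays and summarises probe sets, which compresses differences among low values. Of 25429 probe sets, 754 were not named by the platform annotation, 0 had several symbols, and the 24675 with 1 symbol entered the test. The table holds 0 columns of other samples. The labels do not state that each tumor came from a mouse of its own, so the p-values cover only the spread among the 8 tumors as labelled. For arrays, their number limits the precision.

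Groups came from the sample titles and characteristics, and the title word HFD was taken to mean HFHCD, the only such diet named elsewhere for these tumors. Diets were compared over all 8 arrays with limma 3.58.1 in R 4.3.3, without covariates, filter or further scaling. The threshold for a call was an unadjusted p of 0.05, as in the methods. Adjustment was by Benjamini-Hochberg over the 24675 genes. Beside it stands, for single genes, the exact two-sided permutation test over 70 splits. The member groups, pathway lists and marker lists were written from general knowledge, and members and lists were chosen with earlier results of these data known.

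Genes given in full are the called members and those with a mean of 6 or more. The other members are given by count, range and name, and up to 5 genes per pathway list by smallest p. Other settings tried were a block for the replicate number, each array left out, array weights, a trended and robust prior, the methods' t-test, median centring, quantile normalization, and a filter for genes above 4.5 in at least 4 arrays. The sample titles name no pairing of tumors by replicate number. A fit without CD 1 and CD 3 was added with the values in view. The fit was tested on simulated data.

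Promoter letters, gene order and the pseudogene label came from RefSeq tables (GRCm38.p6), in which 26 of 34 members had a promoter. The files name no build, so no coordinates of probe sets are given. Python 3.11.15, Biopython 1.88 and matplotlib 3.10.9 were used for sequences and plots.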

Additional observations from a re-analysis of the deposited data

Results flagged for a closer look

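Within the 4 tumors of a diet, a single tumor stood far from the other 3 in 4 of the 68 combinations of Clec gene and diet, where chance gives about 1 in 20. Clec16a was 6.87 in CD 1 and 7.77 to 7.89 in the other CD tumors. Clec9a was 4.42 in CD 3 and 3.82 to 3.84 in the other CD tumors, and Clec4b1 was 3.36 in CD 3 and 2.81 to 2.89 in the others. Clec10a was 3.50 in HFHCD 3 and 4.31 to 4.46 in the other HFHCD tumors, and without HFHCD 3 it was no longer called (-0.70).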

How the results depend on the processing

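Clec4a3 was lower and called in all 16 alternatives. The number of lower Clec genes was 1 by the methods' t-test (Clec4a3), 2 with array weights (Clec4a3 and Clec4a1) and 2 without CD 1 and CD 3, and ran from 1 to 8 when single tumors were left out (8 without CD 2, 7 without CD 4, 2 without CD 1, 1 without HFHCD 3). Without CD 2, Clec12a, Clec2d, Clec4a2, Clec4d and Clec4n joined the calls, without CD 4 Clec12a, Clec2d and Clec5a, and without CD 3 Clec14a. The number of higher Clec genes was 1 of 34 with array weights (Clec2i), where 1928 of all 24675 genes were higher. It was 2 of 34 without CD 1 and CD 3 (Clec2i and Clec3b), where 1810 of the 24675 were higher, and 0 whichever single tumor was left out. Of all genes, 3.39% were lower by the t-test, 6.41% under array weights and 7.2% without CD 1 and CD 3. With single tumors left out the share was 7.16% without CD 1, 4.28% without CD 2, 4.23% without CD 4 and 3.23% without HFHCD 3. The median fold change of the family was -0.44 over the 12 members left by the filter on dim genes, which leaves out Clec10a and the 21 dim genes and calls Clec12a lower. It ran from -0.15 to -0.08 with single tumors left out and was -0.012 without CD 1 and CD 3. Called signalling genes numbered 3 by the methods' t-test and 4 to 9 with single tumors left out. Called C-type lectin genes outside the family numbered 4 by the methods' t-test, 4 under the filter on dim genes, 4 without CD 1 and CD 3, and 2 to 8 with single tumors left out. Clec16a ran from -0.12 (without CD 1) to 0.22 with single tumors left out, and was -0.049 with array weights and -0.14 without CD 1 and CD 3. Clec2d turned to 0.070 without CD 1 and CD 3. The causes were not tested.

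Deviations of same-numbered tumors from their diet means correlated at 0.27, -0.03, -0.26 and 0.05 for numbers 1 to 4. Tumors of unlike number were not compared, so a pairing by number was not shown, and its absence was not tested. With the replicate number as a block, 6 Clec genes were lower (the 4 named, Clec12a and Clec2d) and 0 higher, the median was unchanged at -0.11, and 7 signalling and 6 other C-type lectin genes were called. The 21 dim members lie where array signal limits any difference.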
